A study of Mus musculus with 18 samples.

Results

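The regions described here are those whose accessible chromatin stood out in macrophages given CpG and then LPS. A region belonged to the set when its group mean in CpG then LPS was at least 0.6 above each of medium alone, CpG alone and LPS alone, and its group mean in polyI:C then LPS was less than 0.4 above the highest of medium, polyI:C alone and LPS alone. The scale is the deposited log2 CPM, in which 1 unit is a doubling of library-scaled reads. The rule gave 652 of 53796 regions. The cells were bone marrow-derived macrophages of wildtype C57BL/6 mice aged 6 to 12 weeks, grown with 20 ng/mL M-CSF and replated on day 7. Open chromatin was measured by ATAC-seq, a transposase assay that tags accessible DNA. Cells received a first treatment for 4 h and a second for a further 4 h, at 100 nM CpG, 1 ng/mL LPS, 1 µg/mL polyI:C or 10 ng/mL TNF.

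The 9 groups, of 2 libraries each, are named by their treatments in order. CL received CpG then LPS, PL polyI:C then LPS, CT CpG then TNF and PT polyI:C then TNF. In MC, ML, MP and MT medium came before CpG, LPS, polyI:C or TNF, and MM had medium throughout. No group had CpG or polyI:C followed by medium, so what the first stimulus left behind without a second was not measured. Whether the libraries of a group came from different mice or cultures is not in the labels, so each p-value speaks of the spread among these libraries alone.

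CpG DNA is sensed in endosomes by TLR9 and signals through MyD88, which leads to NF-kB and MAP kinases. LPS is sensed by TLR4 through MyD88 and TRIF, polyI:C mimics viral double-stranded RNA and induces type I interferon through TLR3 and cytosolic sensors, and TNF signals through its own receptors to NF-kB. Distal enhancers of macrophages are known to gain accessibility when such signals recruit NF-kB, AP-1, C/EBP and interferon-regulated factors, and part of that gain can outlast the stimulus.

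Each library held between 3141641 and 5986835 reads in regions. Replicate libraries correlated least in PT (0.919 across regions), and between 0.958 and 0.973 elsewhere. The MP pair agreed within sampling noise (chi-square per region 1.003, p = 0.285 over 53710 regions), so MP may be 1 library in 2 parts. MP entered the choice of regions and, through the estimate of the spread shared by all groups, the fit, but it is in none of the contrasts tested here. Of 9 macrophage marker genes, 9 had a region near a gene end, at 3.50 to 5.39 log2 CPM. Such a region was also found for 2 of 6 neutrophil markers (4.15 and 5.17), 2 of 4 dendritic cell markers (2.75 and 5.65), 2 of 5 B cell markers (2.93 and 3.49), 1 of 6 T cell markers (4.32), 1 of 3 erythroid markers (4.16) and 0 of 5 fibroblast and endothelial markers. None of these marker regions was among the 652, and the levels of the other types' regions overlapped those of the macrophage regions.

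Sequence was at hand only for RefSeq promoters and miRNAs, build GRCm38.p6. Matches to factor motifs were therefore looked for only in the 250 bases before a gene start, and the sequence of the distal regions was not used here. Of 32851 such windows 11 touched one of the 652 regions. The 5 printed here are those of protein-coding genes, predicted genes skipped, whose window shared at least 240 bases with its region, and they were chosen after their values were seen. Mmp14 encodes a membrane-anchored matrix metalloprotease, Rnase2a a secreted ribonuclease of the eosinophil-associated family, Hspb9 a small heat shock protein, Klrk1 the activating receptor NKG2D, and Dpy19l3 a C-mannosyltransferase. Capitals mark motif matches.
Mmp14, chr14:54431348-54431597, plus strand: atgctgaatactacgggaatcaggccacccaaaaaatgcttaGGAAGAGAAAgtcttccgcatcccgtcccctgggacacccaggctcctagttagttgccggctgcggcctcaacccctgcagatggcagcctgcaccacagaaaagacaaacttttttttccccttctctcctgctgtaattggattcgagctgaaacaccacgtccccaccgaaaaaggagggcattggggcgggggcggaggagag
Rnase2a, chr14:51256113-51256362, minus strand: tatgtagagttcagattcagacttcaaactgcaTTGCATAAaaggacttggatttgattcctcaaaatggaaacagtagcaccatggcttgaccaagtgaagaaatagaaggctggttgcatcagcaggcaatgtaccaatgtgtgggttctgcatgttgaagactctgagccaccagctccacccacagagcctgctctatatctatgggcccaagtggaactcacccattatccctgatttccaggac
Hspb9, chr11:100713679-100713928, plus strand: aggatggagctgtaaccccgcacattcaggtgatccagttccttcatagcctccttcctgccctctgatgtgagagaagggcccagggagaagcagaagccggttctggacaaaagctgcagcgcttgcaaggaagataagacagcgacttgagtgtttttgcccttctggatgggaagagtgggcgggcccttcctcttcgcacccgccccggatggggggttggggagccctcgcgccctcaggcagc
Klrk1, chr6:129623865-129624114, minus strand: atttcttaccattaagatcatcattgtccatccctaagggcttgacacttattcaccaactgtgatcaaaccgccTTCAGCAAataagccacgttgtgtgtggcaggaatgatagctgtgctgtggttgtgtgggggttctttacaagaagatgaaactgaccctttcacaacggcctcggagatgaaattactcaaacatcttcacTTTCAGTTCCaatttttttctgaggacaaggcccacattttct
Dpy19l3, chr7:35754455-35754704, minus strand: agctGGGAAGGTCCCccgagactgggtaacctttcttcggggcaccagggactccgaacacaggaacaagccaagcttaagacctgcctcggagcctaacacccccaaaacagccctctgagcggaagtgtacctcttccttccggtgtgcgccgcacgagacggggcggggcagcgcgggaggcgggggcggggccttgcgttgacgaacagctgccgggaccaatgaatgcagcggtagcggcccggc
In Mmp14 the capitals are the composite ETS and IRF element EICE (GGAANNGAAA), which begins 208 bases before the start and is held by 2.30% of all windows. In Rnase2a they are the C/EBP motif (TTGCNNAA), held by 9.56% of all windows. Klrk1 holds a C/EBP and an EICE match on the opposite strand. Dpy19l3 holds the stricter NF-kB motif, with matches to the looser one over the same bases. The other letters searched, on both strands, were NF-kB (GGGANNTTCC, 1.21% of all windows, and the looser GGGANNNNCC, which contains it, 17.6%), the interferon element ISRE (GAAANNGAAA, 2.98%), AP-1 (TGANTCA, 6.75%), PU.1 (GAGGAAGT, 2.44%) and STAT (TTCNNNGAA, 7.02%). Among the 11 windows, 2 held the stricter NF-kB motif, 4 the looser one, 3 C/EBP, 2 EICE, 1 AP-1, 1 STAT, 0 ISRE and 0 PU.1. Of the 10894 windows that touched any region, 1.48% held the stricter NF-kB motif, 23.3% the looser one and 7.55% C/EBP. In these EICE was at 1.89%, AP-1 at 4.61%, STAT at 5.53%, ISRE at 2.73% and PU.1 at 3.00%. Hspb9 held none of these motifs.

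A pair of the 652 regions lay 2858 and 3593 bases past the hairpin of Mir155 on chromosome 16. Its product miR-155 is induced by inflammatory signals in macrophages and targets, among others, the mRNA of the phosphatase SHIP1. The mature sequences are shown, because the pair had some of the largest rises described here, with the seed, bases 2 to 8, in capitals.
mmu-miR-155-5p, chr16:84714143-84714165, plus strand: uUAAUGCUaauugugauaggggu
mmu-miR-155-3p, chr16:84714182-84714202, plus strand: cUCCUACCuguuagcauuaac
In all, 10 of the 652 regions (1.53%) lay within 10 kb of an annotated miRNA hairpin, against 1.83% of all regions.

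Most of the 652 regions were distal. Of them 368 (56.4%) lay inside a protein-coding gene, against 43.0% of all regions, 169 (25.9%) lay between genes, against 22.9%, and 55 (8.44%) lay over 50 kb from a gene, against 9.19%. Only 60 (9.20%) were at most 1 kb from either end of a gene, compared with 24.9% of all regions. The median distance to the nearest annotated gene start was 30893 bases over the 626 with a start on their chromosome in the table used, against 19746 bases over all regions. They were scattered, with 549 genes for the 597 regions within 50 kb of a gene and 505 of these genes holding a single one. In all, 82 of the 652 had another within 50 kb. Distal places were not particular to this set. The rule with CpG and polyI:C exchanged gave 1020 regions, 3.82% near a gene end, 54.5% inside a gene and 13.1% over 50 kb away. Over all regions the median level was 4.39 log2 CPM near gene ends and 3.50 inside genes. The places of equally weak regions were not counted.

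**Figure D1:**
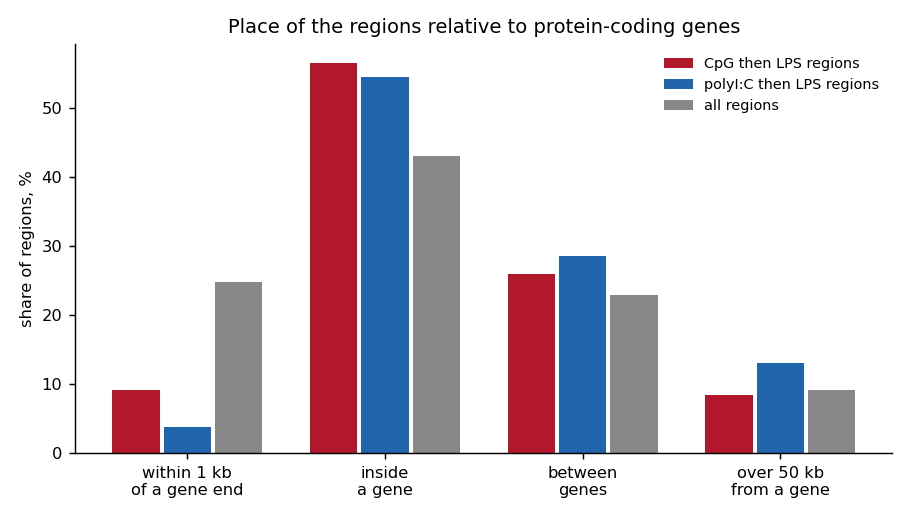
Share of regions (%, vertical axis) by place relative to protein-coding genes, for the 652 CpG then LPS regions (red), the 1020 regions chosen by the same rule with CpG and polyI:C exchanged (blue) and all 53796 regions (grey). The red bar within 1 kb of a gene end stands at 9.20% and the blue at 3.82%, against 24.9% for all regions.

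The values that chose the regions are given as a description. The median over the 652 of the group mean was 3.51 log2 CPM in CL, 3.01 in PL, 2.68 in MC, 2.51 in ML, 2.52 in MP and 1.93 in MM. The margin of CL over the highest of MM, MC and ML had a median of 0.74 and reached 1.68, and 262 regions had a margin under 0.7. That highest group was MC at 429 regions, ML at 171 and MM at 52. Just inside the limit were regions inside Cyrib, Pfkfb3 and Dok6, with margins of 0.6012, 0.6005 and 0.6004, and just outside were regions assigned to Ankrd12, Nrp1 and Rps6ka2, at 0.5989, 0.5988 and 0.5983. In 646 of the 652 both CL libraries lay above every MM, MC and ML library, a count that follows largely from the rule and was not made over all regions.

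CL was the highest of all 9 groups at only 445 of the 652 regions (68.3%). MP was highest at 77, CT at 53, PL at 44 and PT at 33. The limit on PL is relative to MP, so it also admitted 121 regions at which polyI:C alone stood above CL. At these the median was 2.97 log2 CPM in CL, 3.38 in PL and 3.61 in MP. At the other 531 it was 3.64 in CL, 2.89 in PL and 2.28 in MP. Calling the set most open after CpG then LPS therefore holds for the 445.

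The regions were weakly open. Their mean level over all libraries had a median of 2.65 log2 CPM, against 3.67 for all regions, and 480 of them (73.6%) lay under the 25th percentile of all regions. The level of weak regions as a whole also differed between groups. The lower quartile over all 53796 regions was 3.16 in CL, 3.15 in PL, 3.06 in MC, 2.98 in ML and 3.03 in MP, 3.09 in CT, 3.10 in PT and 2.99 in MT, and 2.95 in MM. It was highest in CL and PL and lowest in MM, and the single libraries of CT and PT overlapped those of MC. The part of these differences in the choice of the regions was not tested. With libraries quantile-normalized the rule gave 550 regions, of which 368 were among the 652, and with libraries shifted to the same median it gave 484, of which 435 were.

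**Figure D2:**
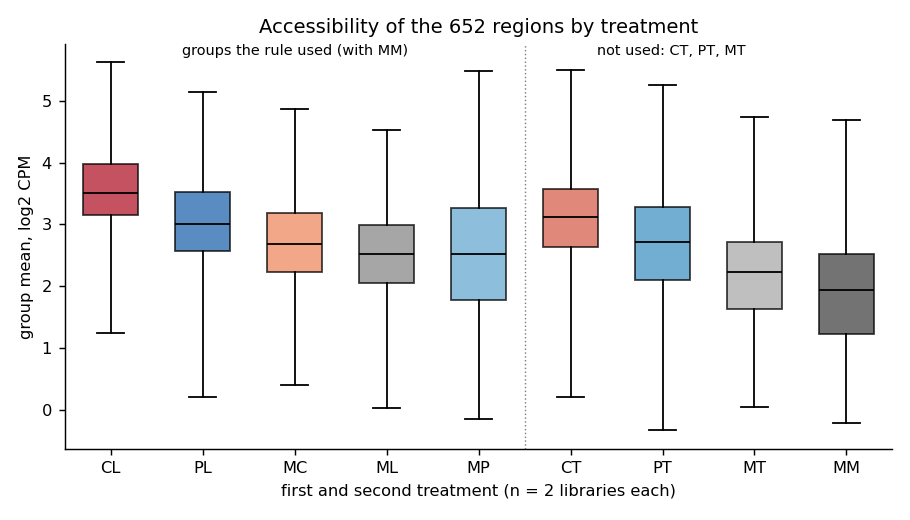
Group mean accessibility (log2 CPM, vertical axis) of the 652 regions in each of the 9 groups (n = 2 libraries each). Boxes span the quartiles, lines mark medians and whiskers the full range. Medians are 3.51 in CL and 1.93 in MM, which the rule used, and 3.12 in CT, 2.71 in PT and 2.23 in MT, which it did not.

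The values of the libraries with TNF did not enter the rule, so contrasts among CT, PT and MT alone could be tested at the regions. The choice of regions was nevertheless made with earlier results of these data known. Most of the set was more open after CpG then TNF than after TNF alone. The median level over the 652 was 3.14 and 3.13 log2 CPM in the 2 CT libraries, against 2.16 and 2.28 in the 2 MT libraries. Limma called 386 of the 652 regions (59.2%) higher in CT than in MT and 0 lower, at an adjusted p under 0.05 over all 53796 regions. Over all regions, 11.2% were called higher and 6.18% lower. The median difference was 0.88 (quartiles 0.52 and 1.28), against 0.02 over all regions, and it was positive at 635 of the 652. Both CT libraries lay above both MT libraries at 554 regions (85.0%), against 30.2% of all regions, and below them at 2, against 26.2%. In bulk libraries a region open in fewer cells and a region less open in each cell cannot be told apart.

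Other weak regions were called less often than the weak ones of the set. Of the 480 under the 25th percentile of level, 57.5% were called higher in CT, against 16.5% of the 12969 other regions under it. Of the 172 with a higher level 64.0% were called, against 8.71% of the 40175 others. With quantile normalization the median difference was 0.65, 286 of the 652 were called higher and 2 lower, and 8.55% of all regions were called higher. Leaving out a library of CT or MT gave a median difference of 0.80 to 0.89, with fewer regions called. By place, 60.0% were called near gene ends, 59.5% inside genes, 57.4% between genes and 61.8% over 50 kb away, against 4.72%, 13.8%, 13.5% and 11.1% of all regions in those places.

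**Figure D3:**
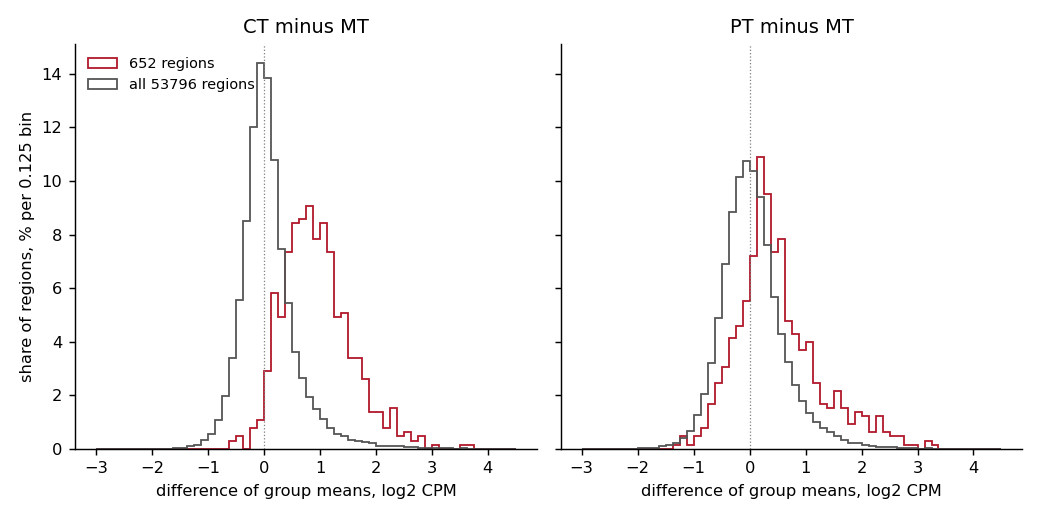
Distribution of the difference of group means (log2 CPM, horizontal axis) as the share of regions per bin (%, vertical axis), for CT minus MT and PT minus MT, in the 652 regions (red) and in all 53796 regions (grey). The red median is 0.88 in CT minus MT, against 0.02 for all regions, and 0.36 in PT minus MT, against 0.00.

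Fewer of them were higher after polyI:C then TNF than after TNF alone. Limma called 213 of the 652 (32.7%) higher and 16 (2.45%) lower in PT than in MT, with a median difference of 0.36, against 15.6% and 13.4% of all regions. With quantile normalization the median difference was 0.17, with 152 (23.3%) called higher and 35 lower. Over all regions 6859 (12.8%) were then called higher and 7375 lower. Both PT libraries lay above both MT libraries at 349 regions (53.5%) and below them at 54 (8.28%), against 30.2% and 27.7% of all regions. Of the 480 weak regions 31.7% were called higher, against 24.9% of other weak regions, and of the 172 stronger ones 35.5%, against 12.3%. Set directly against each other, CT was higher than PT at 261 of the 652 regions (40.0%) and lower at 59 (9.05%), against 18.0% and 15.4% of all regions. With quantile normalization these counts were 260 (39.9%) and 75, against 9458 (17.6%) and 9113 of all regions. Both CT libraries lay above both PT libraries at 373 (57.2%) and below them at 126 (19.3%), against 31.7% and 30.3%. Fits restricted to the 2 groups of a contrast called 143 (21.9%) higher and 2 lower in PT than in MT. Over all regions they called 4766 (8.86%) higher and 2794 lower. For CT over PT they called 193 (29.6%) higher and 49 lower, against 4239 (7.88%) and 3824 over all regions.

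The 121 regions at which MP stood above CL had other counts. There 104 (86.0%) were higher in PT than in MT, and CT was higher than PT at 3 and lower at 51 (42.1%). Of the other 531, 109 (20.5%) were higher in PT than in MT, and CT was higher than PT at 258 (48.6%) and lower at 8. Over all regions these 3 shares were 15.6%, 18.0% and 15.4%. CT was higher than MT at 65 of the 121 (53.7%) and at 321 of the 531 (60.5%), against 11.2% of all regions. These differences between the 121 and the 531 were not tested.

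For comparison, the rule with CpG and polyI:C exchanged (PL at least 0.6 above MM, MP and ML, and CL less than 0.4 above the highest of MM, MC and ML) gave 1020 regions. In that set 417 (40.9%) were higher and 6 lower in CT than in MT, while 700 (68.6%) were higher and 1 lower in PT than in MT. CT was higher than PT at 139 (13.6%) and lower at 319 (31.3%). Over all regions 11.2% were higher in CT and 15.6% in PT than in MT. CT was higher than PT at 18.0% of all regions and lower at 15.4%. The difference between the sets was not tested.

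**Figure D4:**
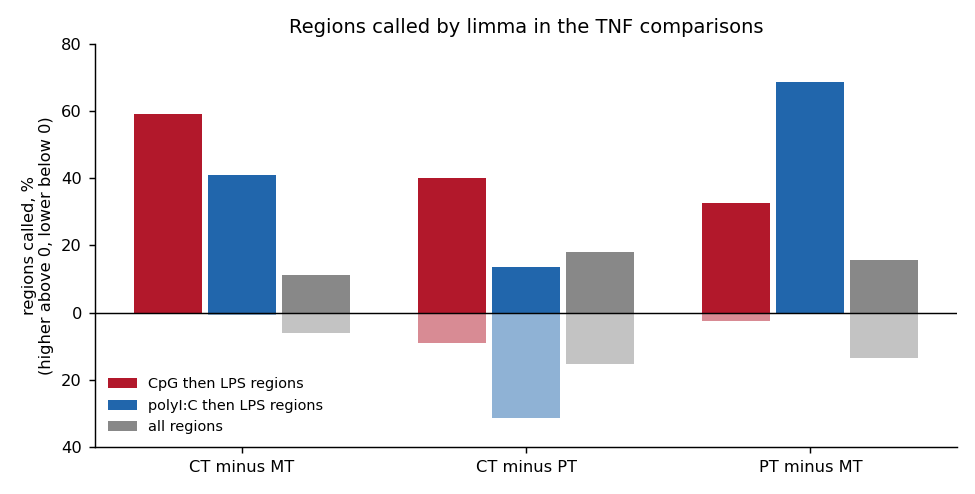
Share of regions (%, vertical axis) called by limma as higher (above 0, solid) or lower (below 0, pale) in CT minus MT, CT minus PT and PT minus MT, for the 652 CpG then LPS regions (red), the 1020 polyI:C then LPS regions (blue) and all regions (grey). In CT minus MT the red bar reaches 59.2%, the blue 40.9% and the grey 11.2%.

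CT was set beside the groups that chose the regions without a test. The CT mean lay above the MC mean at 573 of the 652 regions, above the CL mean at 61 and at least 0.6 below the CL mean at 203. At 171 regions (26.2%) it was at least 0.6 above each of MM, MC and MT, against 1.53% of all regions. The rule itself held MM and MC at least 0.6 below CL. All counts in this paragraph are therefore partly set by the choice of regions. The counts of 573, 61 and 203 have no count over all regions beside them. They cannot show how much of the place of CT between MC and CL goes beyond that choice.

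The region with the largest margin, 1.68, lay inside Slc30a7, a zinc transporter gene (chromosome 3, 115961959 to 115962460). It read 3.36 and 3.66 log2 CPM in CL, 2.64 and 2.05 in PL, 1.81 and 1.84 in MC, 1.44 and 1.37 in ML, 2.02 and 2.30 in MP, and 0.58 and -0.70 in MM, the last being the lowest value deposited. In the groups not used it read 2.60 and 2.33 in CT, 1.59 and 3.03 in PT and 0.36 and 1.08 in MT. CT lay above MT without overlap and differed by 1.74 ± 0.39 (SE, n = 2 each; limma adjusted p = 0.00116). The PT libraries spread across the CT values, and PT minus MT was 1.59 ± 0.39 (adjusted p = 0.00209). Every SE given comes from a spread pooled over all 9 groups. It can be too small for PT, whose replicates agreed least (chi-square per region 2.714). Next among the regions described were those inside Atxn7, a subunit gene of the SAGA coactivator complex (chromosome 14, 14028708 to 14029209), and Maml3, a Notch coactivator gene (chromosome 3, 52078895 to 52079396), with margins of 1.68 and 1.62. Their CT minus MT differences were 1.72 ± 0.35 (adjusted p = 0.000393) and 1.92 ± 0.33 (adjusted p = 5.27e-05). CT exceeded PT by 1.61 ± 0.35 and 1.60 ± 0.33.

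A region 462 bases from Slc13a3, on the side of its start (chromosome 2, 165473659 to 165474160), differed widely between the first stimuli. Slc13a3 encodes a sodium-coupled dicarboxylate transporter. The region read 3.47 and 3.66 log2 CPM in CL, 0.34 and 0.08 in PL, 2.04 and 1.99 in MC, 1.53 and 1.15 in ML, 0.42 and 0.93 in MP, and 1.01 and 0.90 in MM. In the groups not used it read 3.91 and 4.16 in CT, 0.69 and 1.09 in PT and 1.56 and 1.39 in MT. CT was above CL, and no library with polyI:C read above 1.09. CT differed from MT by 2.56 ± 0.33 (adjusted p = 2.15e-07) and from PT by 3.15 ± 0.33 (adjusted p = 4.09e-09), while PT minus MT, at -0.59 ± 0.33, was not called (adjusted p = 0.174).

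The largest rises in CT over MT lay inside Cinp and Ikzf1, followed by the pair near Mir155 and a region inside Arid3b. Ikzf1 encodes Ikaros, a zinc finger factor of blood cells. Its region (chromosome 11, 11744253 to 11744754, 54326 bases past the start) read 5.41 and 5.31 log2 CPM in CL, 3.25 and 3.27 in PL, 4.41 and 3.92 in MC, 3.52 and 2.99 in ML, 2.31 and 2.69 in MP, and 1.70 and 1.32 in MM. It read 5.23 and 5.17 in CT, 1.27 and 1.97 in PT and 1.56 and 1.64 in MT. CT stood with CL, and PT and MT overlapped. CT minus MT was 3.60 ± 0.24 (adjusted p = 6.67e-14). Cinp encodes a partner of the cell cycle kinase CDK2. Its region (chromosome 12, 110878950 to 110879451) read 4.74 and 4.59 in CT and 0.97 and 1.08 in MT, a rise of 3.64 ± 0.31 (adjusted p = 2.64e-11). The Arid3b region (chromosome 9, 57805924 to 57806425), in a gene of an AT-rich DNA-binding factor, rose by 2.84 ± 0.21 (adjusted p = 7.97e-13). A region inside Pik3r5, a regulatory subunit gene of PI3-kinase gamma (chromosome 11, 68478584 to 68479085), rose by 2.69 ± 0.31 over MT (adjusted p = 2.16e-08) and by 3.12 ± 0.31 over PT.

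Near Mir155 PT moved with CT. The region 2858 bases past the hairpin (chromosome 16, 84717062 to 84717563, 718 bases from Mrpl39) read 4.53 and 4.35 log2 CPM in CL, 4.06 and 4.06 in PL, 3.63 and 3.46 in MC, 1.22 and 2.34 in ML, 3.98 and 3.51 in MP, and -0.05 and 0.64 in MM. It read 3.22 and 3.21 in CT, 3.11 and 2.52 in PT and 0.16 and 0.16 in MT. It was close to the floor with medium or TNF alone, between the others with LPS alone, and open in every group that had received CpG or polyI:C. CT minus MT was 3.06 ± 0.29 (adjusted p = 4.43e-10) and PT minus MT 2.65 ± 0.29 (adjusted p = 1.51e-08). CT minus PT, at 0.40 ± 0.29, was not called (adjusted p = 0.292). The neighbouring region (84717797 to 84718298) gave 2.87 ± 0.24 for CT and 3.14 ± 0.24 for PT over MT.

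**Figure D5:**
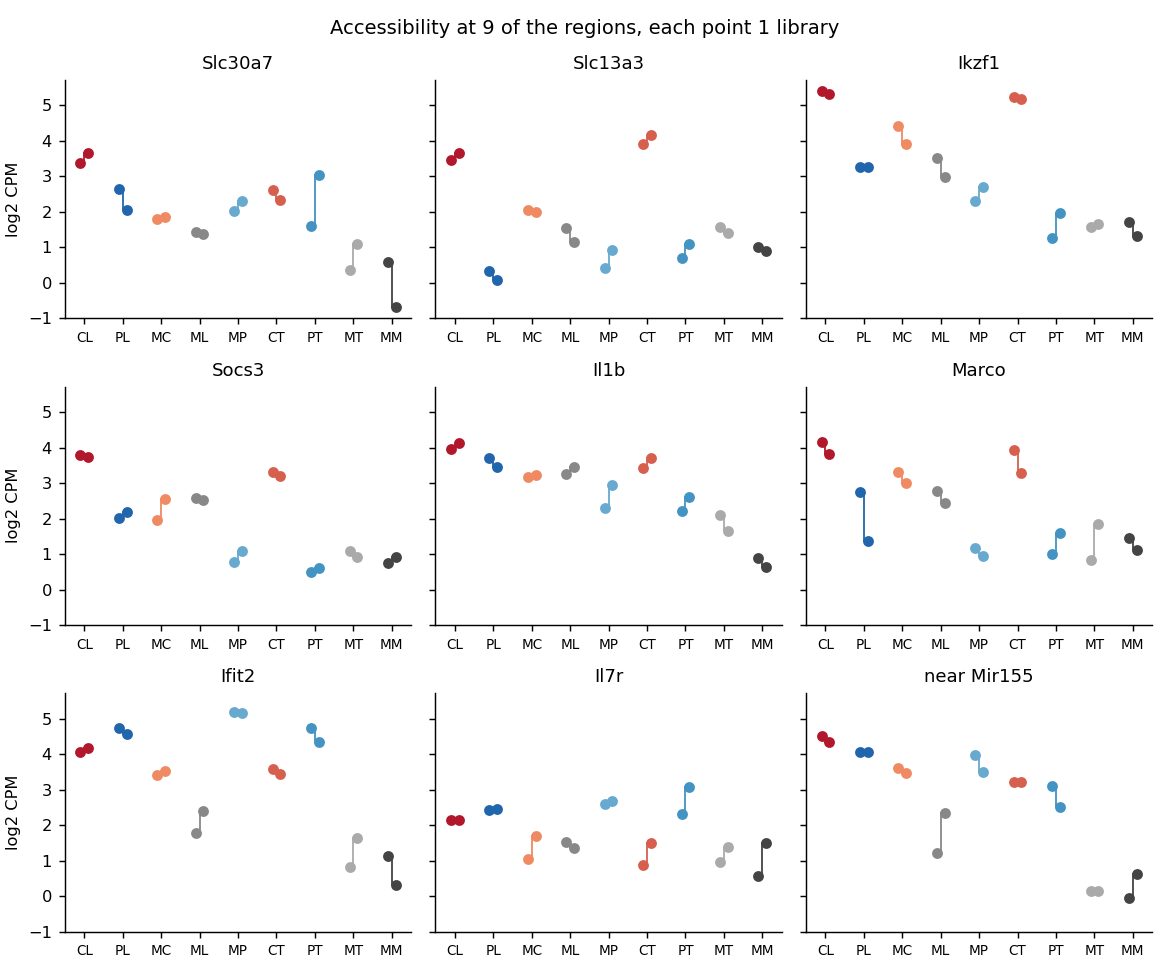
Accessibility (log2 CPM, vertical axis) at 9 of the regions in the 9 groups (horizontal axis), each point 1 library and each line joining the 2 libraries of a group. At Slc13a3, Ikzf1, Socs3 and Marco the CT points stand near CL and the PT points near MT, while at Ifit2, Il7r and near Mir155 MP stands high.

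Genes of 8 lists on macrophage activation held 41 of the 652 regions among their 2212 regions (1.85%), against 1.21% over all regions. Of the 41, 34 were higher in CT than in MT and 0 lower, with a median difference of 1.00. Over all 652, 59.2% were higher, and over all regions 11.2% were higher and 6.18% lower. Counts at the few members of a list are to be read beside these shares. The other 2171 regions of these genes had 454 higher and 116 lower. Across all 549 genes, the 4262 further regions had 740 higher (17.4%) and 216 lower (5.07%), with a median of 0.09. Where a gene is said below to rise, the accessibility of the region assigned to it rose, and its expression was not measured here.

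The list of NF-kB and feedback genes held 7 of its 324 regions. All 7 were higher in CT than in MT, against 59.2% of the 652 and 11.2% of all regions. Among its other 317 regions 83 were higher and 12 lower. Socs3 encodes an inhibitor of JAK and STAT signalling. A region 3429 bases from it (chromosome 11, 117962149 to 117962650) read 3.79 and 3.72 log2 CPM in CL, 2.03 and 2.20 in PL, 1.97 and 2.54 in MC, 2.57 and 2.53 in ML, 0.77 and 1.09 in MP, and 0.74 and 0.90 in MM. It read 3.31 and 3.19 in CT, 0.50 and 0.61 in PT and 1.09 and 0.90 in MT. CT stood apart from both, above MT by 2.26 ± 0.30 (adjusted p = 5.86e-07) and above PT by 2.70 ± 0.30, and PT minus MT was not called (adjusted p = 0.282). A region 12803 bases from Dusp2, a phosphatase of MAP kinases (chromosome 2, 127322855 to 127323356), read 5.17 and 5.28 in CT, 4.54 and 4.05 in PT and 3.34 and 3.11 in MT. It rose by 2.00 ± 0.18 in CT (adjusted p = 9.88e-11) and by 1.07 ± 0.18 in PT (adjusted p = 2.59e-05). Irak3, an inhibitor of Toll-like receptor signalling, was named after its values were seen. Its region inside the gene (chromosome 10, 120191153 to 120191654) read 4.19 and 4.27 in CT, 2.14 and 2.44 in PT and 1.39 and 2.21 in MT, and CT minus MT was 2.43 ± 0.25 (adjusted p = 2.19e-09).

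The remaining NF-kB and feedback regions rose by less, and their calls were lost when some libraries were left out. Nfkbiz, an atypical IkB protein gene, rose by 1.00 ± 0.24, Cyld, which encodes a deubiquitinase that restrains NF-kB, by 0.88 ± 0.22, Birc3, an inhibitor of apoptosis in TNF receptor complexes, by 0.91 ± 0.28, and Nfkbie, an IkB gene also named after its values were seen, by 0.78 ± 0.24. At Nfkbiz the difference was 0.85 without CT replicate 1 (adjusted p = 0.0573) and 0.82 without MT replicate 1 (adjusted p = 0.0609). At Cyld it was 0.76 without CT replicate 1 (adjusted p = 0.0698). At Birc3 it stayed between 0.82 and 0.99 without any 1 of the 4 libraries, with no call left (adjusted p 0.0508 to 0.128), and it was 0.60 with quantile normalization (adjusted p = 0.144). At Nfkbie it was 0.26 without MT replicate 2 (adjusted p = 0.622) and 0.63 without CT replicate 2 (adjusted p = 0.201), and without a variance trend the adjusted p was 0.0593.

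Among the transcription factor genes 10 of 504 regions were members, at 8 genes. Of the 10, 7 were higher in CT, against 59.2% of the 652 and 11.2% of all regions. Of the list's other 494 regions 79 were higher and 23 lower. Ets2 is an ETS family factor induced by growth and inflammatory signals. A region 11094 bases from it (chromosome 16, 95732143 to 95732644) read 4.16 and 4.18 log2 CPM in CL and 2.31 and 1.89 in PL, and 4.07 and 3.93 in CT, 1.27 and 2.27 in PT and 2.26 and 2.13 in MT. It rose by 1.80 ± 0.28 over MT (adjusted p = 9.10e-06) and by 2.23 ± 0.28 over PT (adjusted p = 2.40e-07). A region between genes assigned to Zeb2, a zinc finger repressor of myeloid cells (chromosome 2, 45126002 to 45126503), rose by 1.54 ± 0.26. Bcl6, a repressor of inflammatory genes (chromosome 16, 23999474 to 23999975), rose by 0.85 ± 0.19, with an adjusted p of 0.0717 without MT replicate 2. At 1 of the 2 member regions of Etv6, an ETS family repressor (chromosome 6, 134225401 to 134225902), polyI:C stood above CpG. MP read 4.74 and 4.37 and CL 2.38 and 1.85, and the groups not used read 1.70 and 1.21 in CT, 3.61 and 3.97 in PT and 0.54 and 0.69 in MT. PT exceeded MT by 3.17 ± 0.31 (adjusted p = 8.42e-10), and CT minus MT, at 0.84 ± 0.31, missed the threshold (adjusted p = 0.0527).

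Of the cytokine and chemokine genes, 1 of 168 regions was a member. It lay 39137 bases from Il1b, the gene of interleukin-1 beta (chromosome 2, 129410301 to 129410802). It read 3.97 and 4.14 log2 CPM in CL, 3.70 and 3.46 in PL, 3.18 and 3.22 in MC, 3.25 and 3.45 in ML, 2.31 and 2.95 in MP, and 0.88 and 0.64 in MM. It read 3.42 and 3.70 in CT, 2.21 and 2.59 in PT and 2.10 and 1.64 in MT. CT lay above PT and MT without overlap, and CT minus MT was 1.69 ± 0.25 (adjusted p = 4.46e-06). A region 16646 bases from Cxcl15, a chemokine gene of the lung that was not in the list (chromosome 5, 90819713 to 90820214), read 3.13 and 3.46 in CL and 1.40 and 1.58 in CT, 0.50 and -0.12 in PT and 0.16 and 0.16 in MT. CT exceeded MT by 1.33 ± 0.38 (adjusted p = 0.0107). That call was lost with quantile normalization (0.50, adjusted p = 0.405), without CT replicate 2 (adjusted p = 0.0935) and without MT replicate 2 (adjusted p = 0.0532).

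Antimicrobial and inflammatory effector genes had 4 of 176 regions, 3 of them higher in CT, against 11.2% of all regions. Of the other 172 regions 48 were higher and 17 lower. Marco encodes a scavenger receptor for bacteria. Its region, 394 bases past the far end of the gene (chromosome 1, 120473643 to 120474144), read 4.16 and 3.83 log2 CPM in CL and 2.74 and 1.38 in PL, and 3.93 and 3.29 in CT, 1.01 and 1.60 in PT and 0.84 and 1.86 in MT. CT minus MT was 2.26 ± 0.35 (adjusted p = 7.96e-06). The region over the printed Mmp14 promoter read 3.56 and 3.20 in CL and 2.96 and 2.67 in PL, and 2.83 and 2.86 in CT, 1.77 and 1.97 in PT and 1.19 and 1.52 in MT. It rose in CT by 1.48 ± 0.31 (adjusted p = 0.000497). Clec4e, which encodes the receptor Mincle, rose in CT by 1.10 ± 0.28 (adjusted p = 0.00403), and the call was lost with quantile normalization (0.73, adjusted p = 0.0590) and without MT replicate 2 (adjusted p = 0.0818). The region inside Slc7a2, a transporter of arginine, read 1.40 and 1.50 in CT, 2.93 and 3.18 in PT and 0.36 and 1.75 in MT, and only PT was called over MT.

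The other printed promoters, outside the lists, differed among themselves. At Hspb9 the region read 4.44 and 4.18 in CT, 3.35 and 3.03 in PT and 2.87 and 3.11 in MT, and CT rose by 1.32 ± 0.21 over MT (adjusted p = 1.27e-05). At Rnase2a CT minus MT was 0.97 ± 0.32 (adjusted p = 0.0321), a call lost with quantile normalization (0.50, adjusted p = 0.319) and without any 1 of the 4 libraries (adjusted p 0.0585 to 0.195). At Klrk1 MP read 4.00 and 3.95 and CL 2.75 and 2.21. There CT minus MT, at 0.41 ± 0.30, was not called (adjusted p = 0.385), while PT minus MT was 1.79 ± 0.30 (adjusted p = 2.03e-05). At Dpy19l3 the region read 3.37 and 3.21 in CT, 3.35 and 4.00 in PT and 2.73 and 3.27 in MT, and CT minus MT, at 0.29 ± 0.24, was not called (adjusted p = 0.457).

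Interferon-stimulated genes had 4 of 231 regions. All 4 were higher in CT than in MT, against 59.2% of the 652 and 11.2% of all regions. Of the list's other 227 regions 79 were higher and 2 lower. Ifit2 encodes an antiviral RNA-binding protein. Its region (chromosome 19, 34577068 to 34577569, 534 bases from the gene) read 4.08 and 4.18 log2 CPM in CL, 4.74 and 4.57 in PL, 3.42 and 3.53 in MC, 1.79 and 2.39 in ML, 5.19 and 5.18 in MP, and 1.13 and 0.31 in MM. It read 3.58 and 3.46 in CT, 4.74 and 4.34 in PT and 0.84 and 1.64 in MT. MP stood highest, and both CT and PT lay above MT, by 2.28 ± 0.25 and 3.30 ± 0.25. CT minus PT was -1.02 ± 0.25 (adjusted p = 0.00228). Regions of Oasl1, an antiviral OAS-like protein gene, and Isg15, a ubiquitin-like modifier gene, had CT minus MT differences of 1.25 ± 0.35 (adjusted p = 0.00921) and 1.18 ± 0.38 (adjusted p = 0.0248). With quantile normalization these were 0.66 (adjusted p = 0.212) and 0.52 (adjusted p = 0.385). Without CT replicate 2 the adjusted p was 0.114 and 0.243, at Oasl1 without MT replicate 2 it was 0.0552, and at Isg15 without MT replicate 1 it was 0.355, with a difference of 0.67. At Sp100, a nuclear body protein gene, CT exceeded MT by 1.32 ± 0.29 and PT by 1.04 ± 0.29, and PT minus MT was 0.28 ± 0.29 (adjusted p = 0.495).

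Antigen presentation and costimulation genes had 162 regions. Of the 157 outside the set, 28 were higher in CT than in MT and 6 lower. In the whole set 59.2% were higher, and over all regions 11.2%. All 5 regions of these genes in the set were higher. They included regions of Cd274 (chromosome 19, 29370091 to 29370592) and Pdcd1lg2 (chromosome 19, 29496146 to 29496647), which encode the checkpoint ligands PD-L1 and PD-L2, at 1.18 ± 0.23 (adjusted p = 0.000189) and 1.02 ± 0.25 (adjusted p = 0.00359). Both were also higher in PT than in MT, by 0.99 ± 0.23 (adjusted p = 0.00111) and 0.67 ± 0.25 (adjusted p = 0.0419). Slamf7, a receptor of the SLAM family, rose by 1.19 ± 0.24 in CT, and Icosl, the ligand of ICOS, by 0.92 ± 0.26. Without CT replicate 2 the adjusted p was 0.0659 at Pdcd1lg2 and 0.0668 at Icosl, and at Icosl it was 0.0626 without CT replicate 1 and 0.105 without MT replicate 2.

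Receptor and signalling genes had 8 of 451 regions, of which 5 were higher in CT, against 11.2% of all regions. Of the other 443 regions 67 were higher and 30 lower. Tnfrsf1b, the gene of TNF receptor 2 (chromosome 4, 145211228 to 145211729), read 4.66 and 4.20 log2 CPM in CL, and 3.98 and 3.74 in CT, 3.35 and 3.08 in PT and 3.14 and 3.27 in MT, a rise of 0.66 ± 0.20 in CT over MT (adjusted p = 0.0199). Without CT replicate 1, MT replicate 1 or MT replicate 2 its adjusted p was 0.168, 0.122 or 0.0611. At Il7r, the gene of the interleukin-7 receptor (chromosome 15, 9523045 to 9523546), the libraries of CT and MT overlapped, with 0.87 and 1.50 in CT, 2.33 and 3.08 in PT and 0.97 and 1.39 in MT. CT minus MT was 0.01 ± 0.35 (adjusted p = 0.992), and PT exceeded MT by 1.52 ± 0.35 (adjusted p = 0.00112).

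Of the macrophage identity list 2 of 218 regions were members. Abca1, a cholesterol exporter gene (chromosome 4, 53126784 to 53127285), read 4.46 and 4.27 in CT, 2.33 and 2.08 in PT and 3.05 and 2.28 in MT, and rose in CT by 1.70 ± 0.26 over MT (adjusted p = 6.18e-06). Fcgr1, an Fc receptor gene, rose by 0.87 ± 0.25 (adjusted p = 0.0139), a call lost with quantile normalization (0.69, adjusted p = 0.0621), without CT replicate 2 (adjusted p = 0.136) and without MT replicate 2 (adjusted p = 0.0954).

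Lpp, which encodes a LIM domain protein, held the most members, 4 of its 49 regions spread over 536.7 kb, with CT minus MT from 0.74 to 1.15 and 3 of the 4 called. Its other 45 regions had 23 higher and 0 lower, with a median of 0.54. Elmo1 and Dock4, whose products act in Rac activation during engulfment and migration, held 3 each of 32 and 21 regions. At each gene 2 of the 3 were higher in CT, against 59.2% of the 652 and 11.2% of all regions. The remaining 29 regions of Elmo1 had 3 higher and 2 lower, and the remaining 18 of Dock4 had 6 higher and 0 lower.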

How the data were processed

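ATAC-seq libraries of 9 treatment groups, 2 each, were taken as labelled. Per the submitters' processing notes the build was mm10 (GRCm38) and the tools included featureCounts, MACS3 3.0.0b1, Picard, SAMtools 1.9 and Bowtie2 2.2.5, and settings and region merging are not given in the sources used here. The authors deposited log2 CPM for 53796 regions, each 501 bases from start to end. With a mean prior of 3 reads undone, 100% of the values became whole reads within 0.01, so the log holds an added prior and differences at weak regions are understated.

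Members followed the stated rule on group means. Members and gene lists were chosen with earlier results of these data known. Limma 3.58.1 in R 4.3.3 fitted 9 group means to all regions with a variance trend (9 residual and 29.09 prior degrees of freedom), and p-values were adjusted by Benjamini and Hochberg over all regions, called under 0.05. The median SE of a difference was 0.205. The fit was tested on simulated reads. Regions took the nearest protein-coding gene body within 50 kb (RefSeq, GRCm38.p6), which does not show which gene they regulate. Exons were not used here, and for chromosome 18 no promoters were used.

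Named regions were the 12 largest margins, the 8 largest rises in CT over MT, up to 5 per gene list, those of the genes with most members, up to 6 within 1 kb of a gene end, the 4 largest called differences of CT minus PT and of PT minus MT, and 3 on each side of the threshold, 1 per gene, predicted genes skipped. The text leaves out some. Replicate numbers are not stated to pair libraries, so no block was used. Alternatives were other scalings, a filter on level, log2(CPM + 1), other variance models, voom on recovered reads, fewer groups, a block, left-out libraries and other rule limits.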

Additional observations from a re-analysis of the deposited data

How the results depend on the processing

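The count of regions higher in CT than in MT was 386 of 652. Over alternatives that kept every region and library it ranged from 286 with quantile normalization to 406 with voom. Of all regions 8.55% and 12.1% were then called higher. With only CT and MT in the fit it was 411, against 12.0% of all regions. With PT left out of the fit, an alternative chosen after seeing the data, it was 422, against 13.3%. With 1 library of a contrast left out, fewer regions of each set were called. The median CT minus MT difference over the 652 was then 0.80 to 0.89, against 0.88 with all libraries. For CT minus PT it was 0.40 to 0.47 (0.48 with all) and for PT minus MT 0.31 to 0.41 (0.36). In the 1020 exchanged-rule regions it was 0.50 to 0.58 for CT minus MT (0.53) and 0.79 to 0.86 for PT minus MT (0.82). Over all regions these medians were 0.00 to 0.02. A filter that dropped regions under the 25th percentile of level left 172 of the 652 and 477 of the 1020, with counts of 109, 73, 61, 211 and 366 in that order, because fewer regions were tested. With the replicate number as a block the counts were 385, 258, 212, 412 and 702. Replicate differences of CT and MT correlated at -0.158, those of CT and PT at -0.358 and those of PT and MT at 0.242, so the numbers were not taken to pair libraries. With MP counted as 1 library, also chosen after seeing the data, the first 3 counts were 379, 257 and 209. The shares of all regions were then 10.6%, 17.3% and 15.0%.

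The number of regions meeting the rule was 1106 with a margin of 0.5, 236 with 0.8, 396 with a limit on PL of 0.2 and 1763 with none. Leaving out a library used by the rule gave 637 to 923 regions, of which 507 to 629 were among the 652. Assignment to the nearest gene end put 38 in place of 41 regions in the gene lists. Of 50 regions followed singly, 30 kept their side of the threshold for CT minus MT in all alternatives run, 19 lost the call in at least 1, and 1 (Etv6) gained it without a variance trend. No called difference changed sign. Of those not called, CT minus MT at Il7r (0.01) was -0.64 with quantile normalization, -0.05 with a common median, -0.30 without CT replicate 2 and -0.20 without MT replicate 1, at Slc7a2 (0.39) it was -0.30 with quantile normalization and -0.30 without MT replicate 1, and at Klrk1 (0.41) it was -0.13 with quantile normalization. Besides those given in the report, the calls at Il2ra, Tnfrsf14, Tlr1, Hivep1 and the smaller Ikzf1 region each depended on 2 or more libraries or settings. Low read counts limit precision at the 73.6% of the set under the 25th percentile of level.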
